A study of Mus musculus with 18 samples.

Results

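The 8 neural basic helix-loop-helix (bHLH) transcription factors measured here were the neurogenins Neurog1 and Neurog2, the Neurod factors Neurod1, Neurod2, Neurod4 and Neurod6, and the Nhlh factors Nhlh1 and Nhlh2. They were chosen by gene family, with earlier results of these data known. They are the genes of those names with a probe set that carries 1 gene symbol, and made up 8 of the 14807 genes so named. Each had 1 probe set among the 16661 that were tested. Levels came from Affymetrix whole-transcript arrays, with 1 array per mouse embryo at E13.5, a stage of cortical neurogenesis, and are log2 signals. The tissue was the dorsal telencephalon, the embryonic forebrain region that forms the neocortex. It was taken from 8 wildtype embryos, 6 embryos heterozygous for an Insm1 knockout and 4 homozygous Insm1 knockout embryos, to look for genes that depend on Insm1, a zinc-finger transcription factor of neural and endocrine progenitors. The labels give no strain, sex, litter or design of the knockout allele, so p-values cover only variation among the embryos used.

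Factors of this class bind a short DNA sequence, the E box (CANNTG), usually as dimers with the broadly expressed E proteins Tcf3, Tcf4 and Tcf12. In the dorsal telencephalon the neurogenins act in dividing progenitors, where they start neuronal differentiation and induce Notch ligands, while Notch effectors of the Hes family repress them. Neurod and Nhlh factors follow in intermediate progenitors and newborn neurons, and Neurod2 and Neurod6 are kept on in maturing projection neurons.

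Since Nhlh1, Neurod1 and Neurod4 were the members that passed the test between homozygous and wildtype embryos, the 250 bases before their annotated starts are shown (RefSeq, GRCm38.p6, minus strand genes printed 5′ to 3′), with E boxes in capitals. The windows are chr1:172057597-172057846 for Nhlh1, chr2:79456637-79456886 for Neurod1 and chr10:130280255-130280504 for the outer of the 2 annotated starts of Neurod4.
Nhlh1: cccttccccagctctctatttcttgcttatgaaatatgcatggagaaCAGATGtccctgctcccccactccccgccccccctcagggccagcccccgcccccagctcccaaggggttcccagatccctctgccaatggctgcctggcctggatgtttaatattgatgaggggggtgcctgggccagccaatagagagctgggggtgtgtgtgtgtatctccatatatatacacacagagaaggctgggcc
Neurod1: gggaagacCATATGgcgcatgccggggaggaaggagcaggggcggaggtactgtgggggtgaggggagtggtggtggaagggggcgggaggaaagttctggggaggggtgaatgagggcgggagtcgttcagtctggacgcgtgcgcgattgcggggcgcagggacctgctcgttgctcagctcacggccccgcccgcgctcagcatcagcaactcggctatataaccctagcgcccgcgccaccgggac
Neurod4: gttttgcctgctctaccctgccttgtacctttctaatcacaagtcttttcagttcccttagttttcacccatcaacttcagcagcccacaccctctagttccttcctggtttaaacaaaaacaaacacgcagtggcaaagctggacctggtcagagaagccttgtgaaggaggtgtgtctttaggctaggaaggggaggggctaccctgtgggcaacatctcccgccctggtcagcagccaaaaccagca
The Nhlh1 window held 1 E box, CAGATG, at 203 to 198 bases before the start, and the Neurod1 window held 1, CATATG, at 242 to 237 bases. Neither window of Neurod4 held one. Over both strands, CANNTG occurred before 5 of the 8 members (Nhlh1, Nhlh2, Neurod1, Neurod2 and Neurod6) and in 66.2% of the 32851 RefSeq windows of the same length. CAGATG, one of the forms of CANNTG, occurred before Nhlh1, Nhlh2 and Neurod2 and in 14.4% of windows. CAGCTG, another form, occurred before no member and in 13.0% of windows, and CAGGGGG, the core of the known INSM1 binding motif, before no member and in 5.84%. These matches describe letters in the windows and say nothing of binding.

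Insm1 itself followed the genotype labels. Its log2 level ran from 4.84 to 5.77 in wildtype embryos (median 5.36), from 4.02 to 5.17 in heterozygous embryos (median 4.89), and was 3.61, 3.54, 3.23 and 2.87 in the homozygous embryos. The homozygous embryos lay below all others, with a mean at 24.5% of the wildtype mean (log2 change -2.03, SE 0.20, limma adjusted p = 3.81e-05). The labels do not say which sequence was deleted, so the position of this probe set against the deletion is unknown.

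Heterozygous embryo 6 and homozygous embryo 2 stood apart from the other arrays. The mean of 10 hypoxia-response genes was 4.85 and 4.87 in them and 3.26 to 3.62 in the other 16 arrays, and the 75th percentile of all probe sets was 4.50 in heterozygous embryo 6 and 4.67 to 4.87 elsewhere. Where leaving out either embryo moved a member's change by over 1.5 times or altered a call, the value without it is given. Eif2s3y, a Y-linked gene, was high in 5 of 8 wildtype, 3 of 6 heterozygous and 1 of 4 homozygous embryos, and its level as a covariate kept the same 3 members past the threshold. Of the dorsal telencephalon markers, 5 of 7 had a usable probe set, and their mean was 7.18 to 7.37 in wildtype, 7.14 to 7.32 in heterozygous and 7.06 to 7.19 in homozygous embryos. The mean of 8 ventral telencephalon and interneuron markers was 1.51 to 2.25 in wildtype and 1.56 to 1.74 in homozygous embryos. Signals of different probe sets cannot be set against each other, and without background calls they do not show whether a marker was absent.

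Loss of both Insm1 alleles went with lower levels of Neurod4, Nhlh1 and Neurod1, and no member rose (0.06% of probe sets did). In the comparison of homozygous with wildtype embryos, 3 of the 8 members fell (limma, adjusted p under 0.05), against 0.504% of all probe sets tested called lower. At an unadjusted p under 0.05, 7 of 8 members were lower, against 12.1% of probe sets, with Neurog2 as the exception. Every homozygous embryo lay below every wildtype embryo for Neurod1, Neurod4 and Nhlh1, and such separation occurred for 2.21% of probe sets. The median change over the members was -0.42, beside -0.03 over all probe sets. The members were chosen with earlier results of these data known. Their counts, here and below, are therefore no independent test against the shares of all probe sets. In whole tissue, fewer cells of a type and less RNA per cell cannot be told apart.

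**Figure D1:**
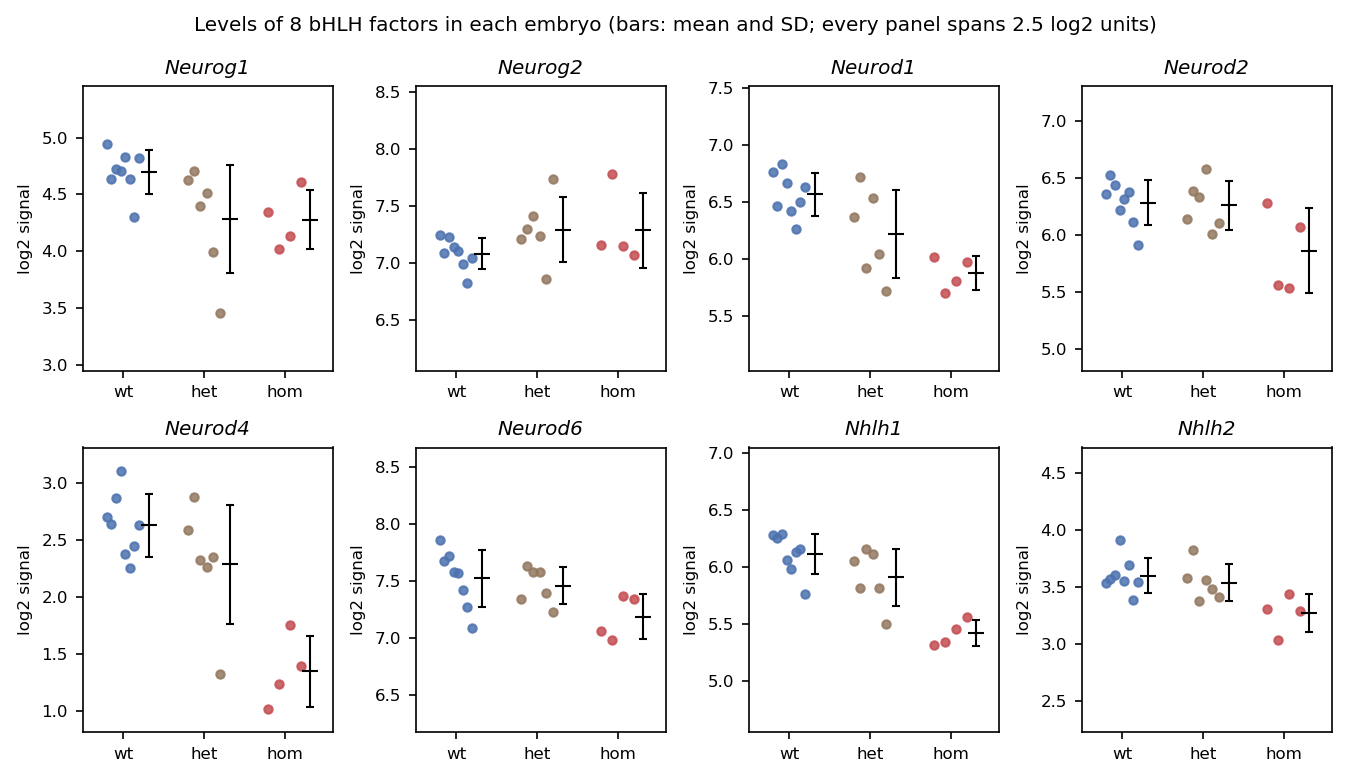
Log2 signal of each of the 8 factors (y axis) in each embryo (points), by genotype on the x axis (wt, wildtype; het, heterozygous; hom, homozygous), with the mean and SD as black bars. Homozygous embryos lie wholly below wildtype ones for Neurod1, Neurod4 and Nhlh1; heterozygous embryo 6 is the lowest heterozygous point for Neurog1 (3.46) and Neurod4 (1.33).

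Neurod4, a neurogenin-induced factor of the early steps of neuronal differentiation (chr10:130268152-130280254), showed the largest fall among the members. Its level ran from 2.26 to 3.11 in wildtype embryos (median 2.64), and was 1.02, 1.24, 1.76 and 1.40 in the homozygous embryos. The highest homozygous embryo was thus below the lowest wildtype one. The mean went from 2.63 ± 0.28 (SD, n = 8) to 1.35 ± 0.31 (SD, n = 4), a log2 change of -1.28 (SE 0.21, 95% interval -1.73 to -0.83, limma adjusted p = 0.00573), or 41.2% of wildtype. In the exact two-sided permutation test of this probe set, p was 0.00404, the smallest that 495 assignments of the labels can give. Its signal was low, and in every homozygous embryo it lay below the median probe set tested on that array. Without background calls, the share of background in this signal is unknown. The 41.2% and the rank of the fall among members therefore describe signal, and may not hold for RNA.

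Nhlh1, a factor of neurons leaving the cell cycle (chr1:172052292-172057596), fell by less in size but with less spread. Wildtype embryos ran from 5.76 to 6.29 (median 6.15), and the homozygous embryos were at 5.31, 5.35, 5.46 and 5.57. The groups did not overlap. The mean went from 6.12 ± 0.18 (SD, n = 8) to 5.42 ± 0.12 (SD, n = 4), a log2 change of -0.69 (SE 0.11, 95% interval -0.93 to -0.46, limma adjusted p = 0.00545), or 61.8% of wildtype. For Neurod4 and Nhlh1 the call held in all 31 alternatives other than the 2 that use a list of neuron markers, with changes of -1.51 to -0.96 and -0.84 to -0.61.

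Neurod1 (chr2:79452637-79456636), a differentiation factor of newborn neurons, changed by as much as Nhlh1 with wider spread. Its level was 6.26 to 6.83 in wildtype embryos (median 6.56) and 6.02, 5.70, 5.81 and 5.97 in the homozygous embryos. Here too the groups did not overlap. The log2 change was -0.69 (SE 0.15), or 62.1% of wildtype (95% interval 49.9% to 77.2%), with a limma adjusted p of 0.043, close to the threshold. Leaving out 1 embryo at a time ended the call for 11 of the 18 embryos, with changes of -0.72 to -0.63 and adjusted p of 0.0544 to 0.165. The embryos concerned were wildtype 1, 2, 3, 4, 5 and 8, heterozygous 1 and 5, and homozygous 2, 3 and 4.

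Neurod2, Neurod6 and Nhlh2 were lower on average in homozygous embryos but missed the limma threshold. Exact permutation tests of these single probe sets, unadjusted, gave p of 0.0485, 0.0485 and 0.00808. Neurod2 (chr11:98325415-98329645), a factor of maturing projection neurons, was 5.91 to 6.53 in wildtype embryos (median 6.34) and 6.28, 5.56, 5.53 and 6.07 in homozygous embryos. Homozygous embryos 2 and 3 lay below the wildtype range and 1 and 4 within it. The change was -0.42 (SE 0.14, limma adjusted p = 0.149), and without homozygous embryo 1 it was -0.56 (adjusted p = 0.0415).

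Neurod6 (chr6:55677818-55681263), a marker of the excitatory neuron lineage of the cortex, had wildtype levels of 7.08 to 7.86 (median 7.57) and homozygous levels of 7.06, 6.98, 7.37 and 7.34. Its groups overlapped, with a change of -0.33 (SE 0.12, 95% interval -0.59 to -0.08, limma adjusted p = 0.195). Nhlh2 (chr3:102010111-102015492), the close relative of Nhlh1, was 3.39 to 3.91 in wildtype embryos (median 3.56) and 3.31, 3.04, 3.44 and 3.30 in homozygous embryos. Only homozygous embryo 3 reached the wildtype range. The change was -0.33 (SE 0.09, 95% interval -0.53 to -0.13, limma adjusted p = 0.101).

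The neurogenins, which act earliest, had homozygous means on opposite sides of the wildtype mean, and neither passed. Neurog1 (chr13:56250478-56252180) ran from 4.30 to 4.95 in wildtype embryos (median 4.72), and was 4.35, 4.02, 4.14 and 4.61 in the homozygous ones. Homozygous embryos 2 and 3 were below the wildtype range. The change was -0.42 (SE 0.18, 95% interval -0.80 to -0.04, limma adjusted p = 0.273), with an unadjusted exact permutation p of 0.0202 for this probe set alone.

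Neurog2 (chr3:127632733-127635636), the main neurogenin of the cortex, was the member with a higher mean. Its level was 6.83 to 7.24 in wildtype embryos (median 7.09) and 7.15, 7.78, 7.15 and 7.06 in the homozygous embryos. Homozygous embryo 2, which also had the high hypoxia-gene level, was alone above the wildtype range. The change was 0.20 (SE 0.14, 95% interval -0.08 to 0.49, limma adjusted p = 0.516) and 0.04 without that embryo (adjusted p = 0.947). In heterozygous embryos the highest Neurog2 level, 7.73, was likewise in embryo 6. Limma called Neurog2 in neither comparison with wildtype, with or without the hypoxia list mean as a covariate. The missing call with that covariate therefore adds nothing. Over all 33 alternatives, that covariate among them, the homozygous change was 0.02 to 0.57 and the heterozygous change 0.09 to 0.33. Both upper ends are values relative to a list of neuron markers. On that scale the median probe set also moved, by 0.34 in homozygous embryos. The cause of the high levels was not tested.

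**Figure D2:**
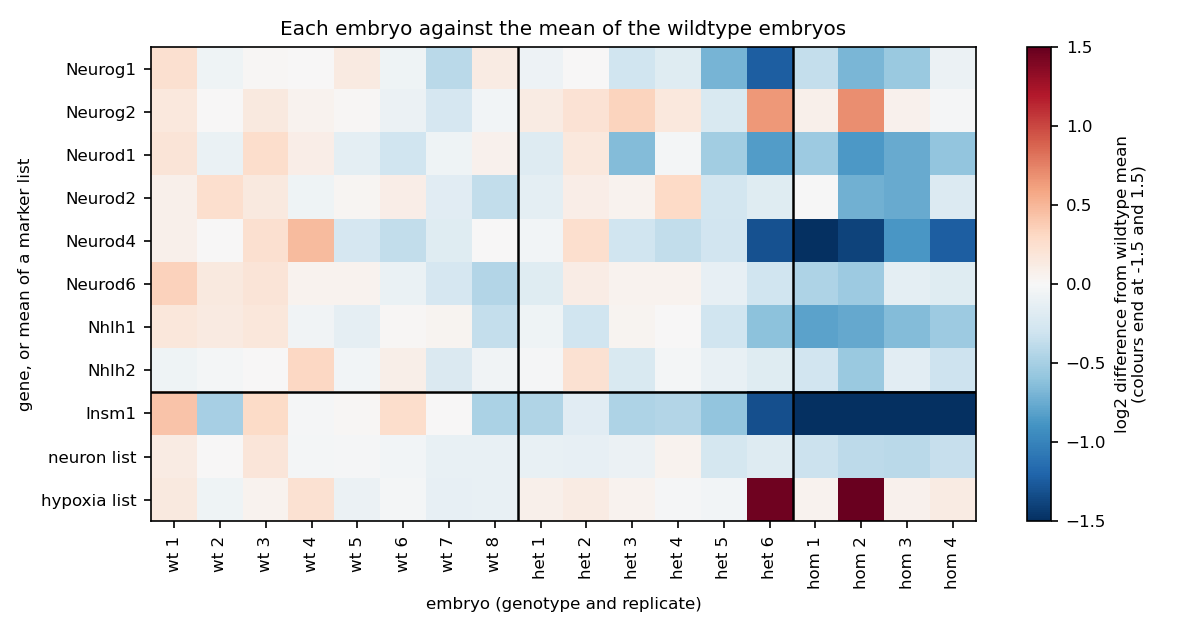
Log2 difference of each embryo (columns, by genotype) from the wildtype mean for the 8 factors, Insm1, and the means of the neuron and hypoxia lists (rows); red is higher and blue lower, with colours ending at -1.5 and 1.5. Neurog2 is highest in heterozygous embryo 6 (7.73) and homozygous embryo 2 (7.78), the 2 columns with a high hypoxia list mean.

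Loss of 1 Insm1 allele changed no member past the threshold. In heterozygous against wildtype embryos, limma called 0 of the 8 members and 0% of all probe sets. Insm1 itself missed the threshold there, at 67.2% of the wildtype mean (log2 change -0.57, SE 0.18, limma adjusted p = 0.641). The lack of calls therefore does not show that the members were unchanged. At an unadjusted p under 0.05, 2 members were lower, Neurog1 and Neurod1, beside 5.13% of all probe sets. Neurod1 was 5.72 to 6.72 in heterozygous embryos (median 6.20), overlapping both other genotypes, with a change from wildtype of -0.35 (SE 0.13, 95% interval -0.63 to -0.07, limma adjusted p = 0.658), or -0.25 without heterozygous embryo 6. Neurog1 was 3.46 to 4.70 (median 4.46) and changed by -0.42 (SE 0.16, limma adjusted p = 0.658), or by -0.25 without heterozygous embryo 6, which held the lowest value. In exact permutation tests of single probe sets, unadjusted, p was 0.036 for Neurog1 and 0.0506 for Neurod1. Neurod4 was 1.33 to 2.88 (median 2.34), with embryo 6 lowest, and changed by -0.34 (95% interval -0.73 to 0.05), or by -0.15 without that embryo. Nhlh1 was 5.50 to 6.16 (median 5.94), with a change of -0.21 (SE 0.10, 95% interval -0.42 to 0.00), or -0.12 without embryo 6, again the lowest.

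Changes in the remaining members were smaller or in the other direction. Neurod2 was 6.01 to 6.58 in heterozygous embryos (median 6.23), with a change from wildtype of -0.02 (95% interval -0.28 to 0.24), which turned to 0.0071 without heterozygous embryo 6. Neurod6 was 7.23 to 7.63 (median 7.49) and changed by -0.06 (95% interval -0.29 to 0.16), or by -0.02 without embryo 6. Nhlh2 was 3.38 to 3.83 (median 3.53), a change of -0.06 (SE 0.08), or -0.03 without embryo 6. These 3 heterozygous groups lay almost wholly within the wildtype ranges. Neurog2 was 6.86 to 7.73 (median 7.27), with a change of 0.21 (SE 0.12, limma adjusted p = 0.68), or 0.12 without embryo 6.

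**Figure D3:**
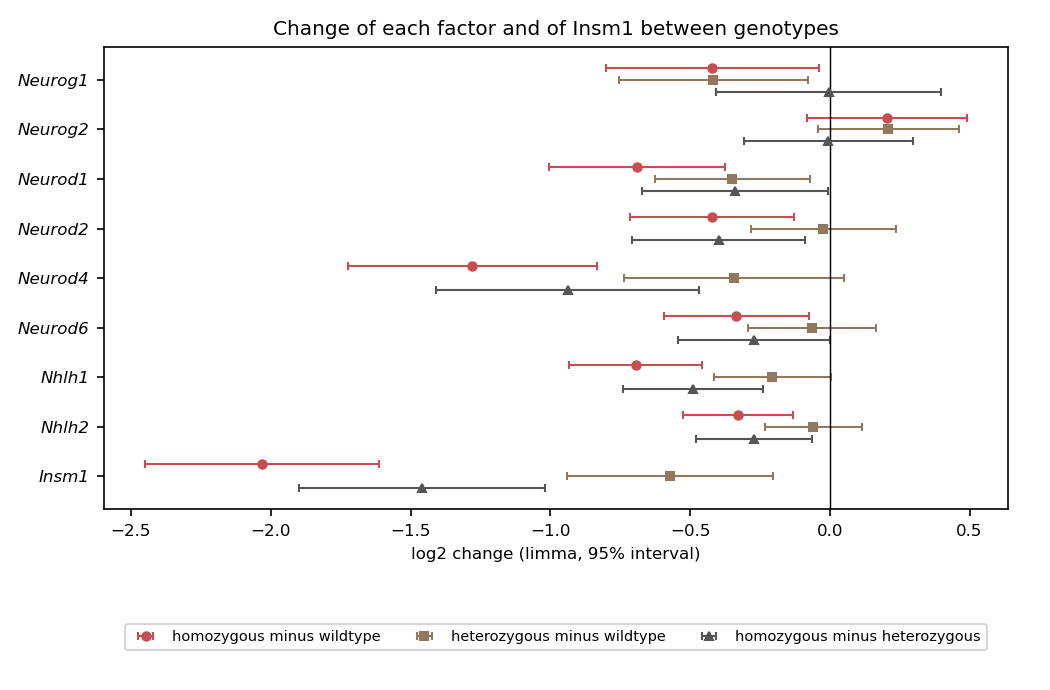
Log2 change (x axis, limma, bars are 95% intervals) of the 8 factors and Insm1 (y axis) for homozygous minus wildtype (circles), heterozygous minus wildtype (squares) and homozygous minus heterozygous (triangles). The homozygous change of Neurod4, -1.28, is the largest of the factors, and Neurog2 alone lies above 0 for homozygous minus wildtype, at 0.20.

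Between homozygous and heterozygous embryos limma called 0 of the 8 members, with 0.018% of all probe sets called lower, while 5 members were lower at an unadjusted p under 0.05 (Neurod1, Neurod2, Neurod4, Nhlh1 and Nhlh2), beside 4.66% of probe sets. Neurod4 differed most, by -0.94 (SE 0.22, limma adjusted p = 0.18), and Nhlh1 by -0.49 (SE 0.12, limma adjusted p = 0.18). No member had all homozygous embryos below all heterozygous ones, which 0.822% of probe sets showed, and for both genes heterozygous embryo 6 was the one that reached the homozygous range. Without it the differences were -1.13 (adjusted p = 0.0126) and -0.57 (adjusted p = 0.0487), and both passed. For Neurog1 and Neurog2 the homozygous and heterozygous means were alike, with 95% intervals for the difference of -0.41 to 0.40 and -0.31 to 0.30.

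Group means fell in the order wildtype, heterozygous, homozygous for 7 of 8 members, and for 29.3% of all probe sets. Fitted as a slope per mutant allele, the same 3 members fell, beside 0.642% of all probe sets called lower, and none rose (0.036% of probe sets did). The slope of Neurod4 was -0.60 per allele (SE 0.11, limma adjusted p = 0.011), or 65.8% of the level for each allele lost. It was -0.57 without homozygous embryo 2 and then missed the threshold (adjusted p = 0.0546). The slope of Nhlh1 was -0.33 (SE 0.06, limma adjusted p = 0.00841) and that of Neurod1 -0.34 (SE 0.07, limma adjusted p = 0.0302). The Neurod1 slope missed the threshold in 13 of 32 alternatives, among them those without wildtype embryo 1, 3, 4 or 8 or homozygous embryo 2, 3 or 4 (-0.36 to -0.32, adjusted p = 0.0548 to 0.115). No member was called off the midpoint of the other genotypes in the heterozygous embryos, where 0.006% of probe sets were called lower. By mean, 2 of 8 members lay below it, Neurog1 and Neurod1. The smallest unadjusted limma p among members was 0.109, for Neurod4, at 0.30 (95% interval -0.07 to 0.67). The lack of calls does not show equal steps. For Neurod4 the heterozygous mean was 78.9% of wildtype, and the homozygous mean 52.2% of the heterozygous one.

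Marker genes of the cells that express these factors also differed between homozygous and wildtype embryos. All 6 measured of 7 postmitotic neuron markers had a lower mean in homozygous embryos, and Ina, Elavl3 and Map2 fell (limma, adjusted p under 0.05), with a median change of -0.34. The mean of that list was 7.21 to 7.51 in wildtype, 7.07 to 7.39 in heterozygous and 6.93 to 7.01 in homozygous embryos, so wildtype and homozygous embryos did not overlap. The 5 measured of 6 Cajal-Retzius neuron markers were also all lower, with Ebf3 past the threshold, and their mean was 3.17 to 3.41 in wildtype and 2.96 to 3.01 in homozygous embryos. Of 5 measured apical progenitor markers, 4 had a higher mean and none passed (median 0.19).

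Set against the neuron list mean of the same array, a measure chosen after the data were seen, the members differed. Neurod4 was lower, at -5.99 to -5.17 in homozygous and -5.03 to -4.19 in wildtype embryos, a relative change of -0.91 (SE 0.20) without overlap, which 0.06% of probe sets showed. Nhlh1 and Neurod1 had relative changes of -0.33 (SE 0.10) and -0.32 (SE 0.13), with overlapping groups. Neurog1, Neurod2, Neurod6 and Nhlh2 had relative changes between -0.06 and 0.04, no larger than their SE. Neurog2 was 0.08 to 0.83 in homozygous embryos relative to the list and -0.40 to -0.16 in wildtype ones. Its relative change was 0.57 (SE 0.13), in the direction in which the median probe set moved. The share of probe sets with such upward separation was not computed. These values carry no call, because the median probe set moved by 0.34 on this scale and 12494 passed. With the list mean as a covariate, limma called 0 probe sets, Insm1 included.

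**Figure D4:**
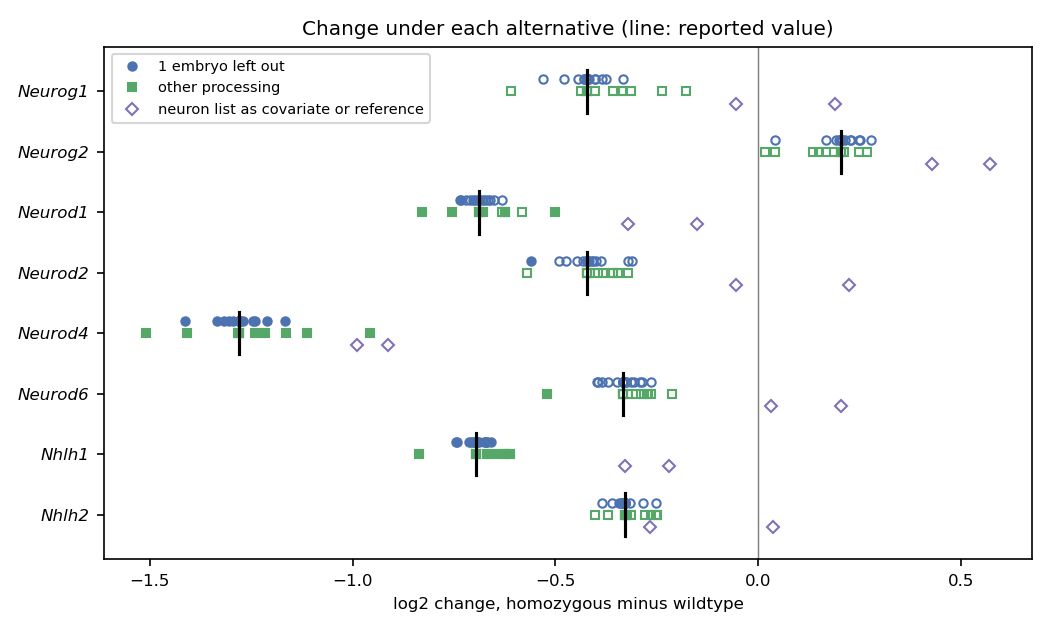
Log2 change, homozygous minus wildtype (x axis), of each factor (y axis) as reported (black line), with 1 embryo left out (circles), under other processing (squares) and with the neuron list as covariate or reference (diamonds); circles and squares are filled where the limma adjusted p was under 0.05, and diamonds are drawn open whatever their p. Neurod4 and Nhlh1 are filled throughout, Neurod1 only in part, and the diamonds of Neurod4, -0.99 and -0.91, stay furthest from 0.

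Among the partners and inhibitors of these factors, 0 of 13 genes passed between homozygous and wildtype embryos, and the median change was -0.10. The E protein Tcf12, a dimer partner, was 7.89 ± 0.11 (SD, n = 8) in wildtype and 7.64 ± 0.14 (SD, n = 4) in homozygous embryos, with a change of -0.25 (SE 0.07, limma adjusted p = 0.105). Id2, which binds E proteins and keeps them from DNA, changed by -0.41 (SE 0.17, limma adjusted p = 0.253). With the replicate number as a block its change was -0.65 (limma adjusted p = 0.0146), though those numbers were not read as pairs. Id4, of the same family, changed by 0.13 (SE 0.05, limma adjusted p = 0.2). Other neural bHLH genes had mean signals of 0.43 to 4.08, and 0 of the 8 measured of 11 passed. Of these, Neurog3 changed by 0.16 (SE 0.10), Olig3 by -0.16 (SE 0.11) and Olig2 by 0.12 (SE 0.11).

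Of 14 genes known as targets of neurogenins or Neurod factors, 13 were measured, 9 had a lower mean in homozygous embryos and 1 fell, with a median change of -0.19. The 4 with a higher mean were Dll1 (0.18), Dll3 (0.29), Gadd45g (0.30) and Cxcr4 (0.06), and none passed with all embryos. The gene that fell was Elavl4, a neuronal RNA-binding protein, from 6.26 ± 0.13 (SD, n = 8) to 5.82 ± 0.05 (SD, n = 4), a change of -0.44 (SE 0.07, limma adjusted p = 0.00325). Relative to the neuron list its change was -0.07. Dll1, Rnd2 and Eomes, singled out after their values were seen, are targets of Neurog2. Dll1, a Notch ligand, changed by 0.18 (SE 0.10, limma adjusted p = 0.413) and passed at 0.26 without heterozygous embryo 6 and homozygous embryo 2 (adjusted p = 0.0394). Rnd2, which acts in neuronal migration, changed by -0.19 (SE 0.19, limma adjusted p = 0.686), or by -0.07 without homozygous embryo 1, -0.12 without 2 and -0.33 without 3. Eomes, the intermediate progenitor factor, changed by -0.34 (SE 0.08, limma adjusted p = 0.0612). It passed without heterozygous embryo 6 (limma adjusted p = 0.00864) at the same change, since that embryo enters only the shared estimate of spread. Leaving that embryo out raised the probe sets called from 94 to 369. In heterozygous against wildtype and in homozygous against heterozygous embryos, none of the genes in these 3 lists passed.

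Within the 8 wildtype embryos, where genotype is constant, levels of the members mostly varied in the same direction. Of 28 pairs of members, 24 had a positive Pearson r, with a range of -0.18 to 0.82 and a median of 0.36. Levels on 1 array share that array's RNA and scale, so these are descriptions. With Insm1 included, 36 pairs were computed, and in exact permutation tests 6 had an unadjusted p under 0.05 and 0 an adjusted one (smallest adjusted p = 0.237). Neurod1 and Neurod4 had r = 0.79 and Spearman rho = 0.86, and r = 0.64 without the 2 embryos farthest from the median. Neurod2 and Neurod6 had r = 0.82 (rho = 0.69) but 0.25 without such embryos, and Neurog1 and Neurog2 had r = 0.82 (rho = 0.74) but 0.14. The embryos left out are those farthest from the median of the first gene named. Leaving them out narrows the range of that gene, so a drop in r cannot show that the relation rests on them. Correlations of members with Insm1 ran from -0.02 for Neurod4 to 0.52 for Nhlh1.

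Within the 6 heterozygous embryos 22 of 28 member pairs were positive, with r from -0.63 to 0.91, and again 0 of 36 pairs had an adjusted p under 0.05 in exact permutation tests (smallest 0.183). Neurod4 and Insm1 had r = 0.97 (rho = 0.6), which fell to 0.16 without the 2 farthest embryos. Neurog1 and Insm1 had r = 0.94 (rho = 0.94) and kept 0.75. Heterozygous embryo 6 was the lowest of its group for Neurod4, Neurog1 and Insm1. Neurod2 and Neurod6 had r = 0.79 (rho = 0.77), and 0.99 without the 2 farthest embryos. With so few embryos left, the values without 2 of them are imprecise.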

How the data were processed

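Dorsal telencephalon RNA of 18 embryos was hybridised to Affymetrix whole-transcript arrays, 1 per embryo. The authors deposited a table of log2 values for 23238 probe sets, made with RMA in Affymetrix Expression Console 1.1, per the submitters' processing notes. The log base was read from the range of the values. No background calls came with it, so detection is not given, and the number of arrays limits the precision. Probe sets with identifiers of 6700000 or above, 16661 in all, were tested, of which 14939 carried 1 gene symbol, 989 several and 733 none in the platform annotation; several or none were not named. One limma model (limma 3.58.1, R 4.3.3) of group means over all 18 arrays gave each contrast, with Benjamini-Hochberg adjustment over the 16661 probe sets and a threshold of 0.05, and a second model gave the slope per mutant allele. It was tested on simulated data. Exact permutation tests were two-sided. All members were named. Also named were Insm1 and, of each related list, the genes that passed or else the 3 with the smallest unadjusted p. Genes alike in pattern were the 3 with the highest Pearson r of deviations from genotype means, at a mean level of at least 3. The members and lists were chosen with earlier results of these data known. Alternatives changed normalization, filter, prior, weights, covariates, embryos, threshold and the replicate block. Promoters came from RefSeq GRCm38.p6. Protein sequences were not used here.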

Additional observations from a re-analysis of the deposited data

Results flagged for a closer look

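These values stood far from the rest of their group, by the gap to the nearest embryo over the group's range (Dixon's criterion). Of 66 group tests, 10 met it, and chance alone gives about 1 in 20. Of these, 7 concern heterozygous embryo 6. Its hypoxia-gene mean was 4.85, with the next heterozygous embryo at 3.52, and the 75th percentile of its array was 4.50, with the next at 4.69. Its Insm1 level was the lowest of the heterozygous embryos at 4.02 (next 4.76). Id2 was 5.03 there (next 5.75), Dll1 5.97 (next 6.53), Rnd2 6.27 (next 7.06) and Eomes 6.44 (next 6.77). In homozygous embryo 2, Neurog2 was 7.78 with the next homozygous embryo at 7.15, and the hypoxia-gene mean was 4.87 with the next at 3.51. Olig3 was 1.17 in heterozygous embryo 1 (next 0.72).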

How the results depend on the processing

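Heterozygous against wildtype embryos gave no limma call at the threshold used among members or probe sets under any setting run, while in the unadjusted exact permutation of single probe sets Neurog1 (p = 0.036) and Insm1 (p = 0.0107) were under 0.05. For homozygous against wildtype embryos, the 3 members called became 2 to 4 with 1 embryo left out, 4 under the replicate block (Neurod6 added, -0.52; of the other named genes Id2, -0.65, and Eomes, -0.44, also passed) and 0 with the neuron list covariate. Neurod1 was also lost over the whole table (adjusted p = 0.0806), without both outlying embryos (0.0675) and with the ventral (0.104) or hypoxia list (0.118) as covariate. The 94 probe sets became 158 after a further quantile normalization (74 lower, 84 higher, against 84 and 10), 142 after median centring (67 and 75), 146 without the dimmest probe sets, 361 under the replicate block, 173 with the 75th percentile and 59 with the ventral list as covariate, 0 with and 12494 relative to the neuron list, 33 and 383 at thresholds of 0.01 and 0.1, and 36 to 394 with 1 embryo left out. For homozygous against heterozygous embryos, 0 members became 1 with the 75th percentile covariate, 1 relative to the neuron list and 0 to 2 with 1 embryo left out. The 5 probe sets there became 21, 13, 3 (array weights), 1 (replicate block), 26 (75th percentile), 1 and 5736 (neuron list as covariate and reference), 2 (only these groups), 9 (threshold 0.1) and 1 to 31. The 1 probe set off the midpoint became 0 under 10 settings and 0 to 3 with 1 embryo left out. For the slope, 3 members became 0 with the neuron covariate, 1 at 0.01 and 1 to 3 with 1 embryo left out, and 113 probe sets became 74 (centring), 58 (whole table), 536 (replicate block), 58 (ventral), 61 (hypoxia), 0 and 11926 (neuron list), 75 (both outlying embryos out), 31 and 456 (thresholds) and 33 to 255. The labels share replicate numbers, but deviations of same-numbered embryos correlated at -0.21 to 0.22 over 14 pairs and the own number was highest in 7 of 28 comparisons, so the numbers were not read as pairs.

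Some signs turned, and the causes were not tested. With the neuron list covariate, homozygous minus wildtype became 0.19 (Neurog1), 0.22 (Neurod2), 0.20 (Neurod6), 0.29 (Id2) and 0.44 (Rnd2). Relative to that list it became 0.032 (Neurod6), 0.037 (Nhlh2), 0.12 (Tcf12), 0.21 (Olig3), 0.17 (Rnd2) and 0.022 (Eomes), and Rnd2 was 0.035 with the 75th percentile covariate. Heterozygous minus wildtype turned for Neurod2 (quantile 0.032, centring 0.033, 75th percentile 0.021, hypoxia 0.025, neuron list 0.19 and 0.096, outlying embryos out 0.0071, 1 embryo out -0.088 to 0.026), Neurod4 (75th percentile 0.025), Neurod6 (75th percentile 0.074, neuron list 0.11 and 0.057) and Nhlh2 (quantile 0.031, 75th percentile 0.032, relative to the neuron list 0.061). Homozygous minus heterozygous turned for Neurog1 (centring 0.0021, ventral 0.14, hypoxia 0.062, neuron list 0.405 and 0.24, 1 embryo out -0.17 to 0.082), Neurog2 (quantile 0.0052, centring 0.0019, array weights 0.057, 75th percentile 0.0024, neuron list 0.15 and 0.24, 1 embryo out -0.17 to 0.084) and, with the neuron covariate, Neurod1 (0.021), Neurod2 (0.035) and Neurod6 (0.091). The slope turned for Neurod2 (0.14) and Neurod6 (0.11) with the neuron covariate, and for Neurod6 (0.021) and Nhlh2 (0.024) relative to the list. A planned comparison of protein sequences was not run.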

Other observations

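Genes whose level varied most like each member, as Pearson r of deviations from the genotype means over the 18 arrays, are given as a description. Because the deviations include heterozygous embryo 6 and homozygous embryo 2, those arrays weigh on the values. For Neurod4 they were Prmt7 (r = 0.95), Slc30a6 (0.95) and Trir (0.94), and for Nhlh1 Fam32a (0.92), Rbfox2 (0.91), a splicing regulator, and Mllt11 (0.86). For Neurod1 they were Cxxc1 (0.92), Sirt1 (0.91), a deacetylase, and Gba2 (0.90). The genes most like Neurod2 were Olfm1 (0.88), Dpysl3 (0.87), a protein of growing axons, and Trp53inp2 (0.86), and those most like Neurod6 were Stk25 (0.88), Polr3k (0.83) and Fam210b (0.83). Nhlh2 was nearest to Psmd9 (0.82), Tapt1 (0.81) and Fbxo22 (0.80). The neurogenins had separate neighbours, with Gpam (0.94), Dgcr2 (0.93) and St8sia2 (0.92) for Neurog1 and Slc38a3 (0.91), Zhx2 (0.89) and Jmjd6 (0.89) for Neurog2. None of the 24 genes passed in homozygous against wildtype embryos.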
